A study of Fukomys damarensis with 16 samples.

Results

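The genes described here are 150 of the 21082 genes in an RNA-seq table of a burrowing African rodent in whose colonies few animals breed, the Damaraland mole-rat (Fukomys damarensis). They were chosen by their measured levels, as genes high in brain and in testis and low in kidney, liver and ovary. For every gene the lowest log2(RPKM + 1) among the 4 brain and 2 testis libraries was set against the highest among the 10 kidney, liver and ovary libraries, and the 150 genes with the largest gap were taken. RPKM is a read number scaled to the length of the gene model and to the size of the library. Genes whose mean in brain or in testis was at least 8 times the mean of each of the other 4 tissues had been left out first, so that genes of brain alone or testis alone are not among them. The gap chose the genes, and the contrast of brain and testis with the other tissues is therefore described below without a test.

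Each of the 16 libraries is the only one of its tissue, sex and breeding status. Brain, kidney and liver each have 4 libraries, a breeder and a non-breeder of either sex, while testis and ovary have 1 breeder and 1 non-breeder. By the labels, non-breeders were 5 years old if male and 3 if female, and no age is given for breeders, so age cannot be told apart from breeding status, nor from sex among non-breeders. The brain of the non-breeding male is labelled brain and the other 3 frontal brain. No label ties libraries to an animal or says whether animals were pooled, so p-values measure the spread between these libraries only. No strain, treatment or altered allele is named for any library.

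Brain and testis are known in mammals as the tissues that express the widest range of genes. Neurons and sperm cells share parts of their cell machinery, among them the SNARE proteins that release synaptic vesicles in neurons and take part in the acrosome reaction in sperm, and the microtubule axoneme, which drives the sperm tail and also the cilia of the ependymal cells that line the brain ventricles. The files give identifiers without gene names, and none (0 of 21082) matched an entry of the RefSeq table of this species. Whether the 150 genes belong to such machinery could therefore not be read, and the tissue labels could not be set against known markers. No more than 2 identifiers are printed for each direction of a comparison. In bulk tissue, fewer cells of a type and less RNA per cell cannot be told apart.

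Reads on genes came to 15393003 to 17541246 in the brain libraries, 18555319 and 26730187 in the testis libraries and 15634095 to 27593857 in the other 10. The authors' divisor, the total used to scale a library, was small relative to these reads in liver: reads on genes were 1.55 to 1.97 times the divisor there and 0.665 to 0.945 times in the other libraries, which raises all deposited liver values relative to the other tissues. The 150 genes had at least 16 reads in every brain and testis library, with a median of 598, and 121 of them had 100 or more in each of the 6. Values from few reads carry the larger counting error, and reads are given below beside the lowest of them.

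In brain the mean level of a gene lay between 3.09 and 443 RPKM with a median of 19.9 over the 150 genes. In testis it lay between 2.27 and 230 RPKM with a median of 12.5. The medians in the low tissues were 0.607 RPKM in ovary, 0.294 in kidney and 0.0866 in liver. Of the 150 genes, 69 reached 10 RPKM or more in each of the 6 brain and testis libraries.

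**Figure D1:**
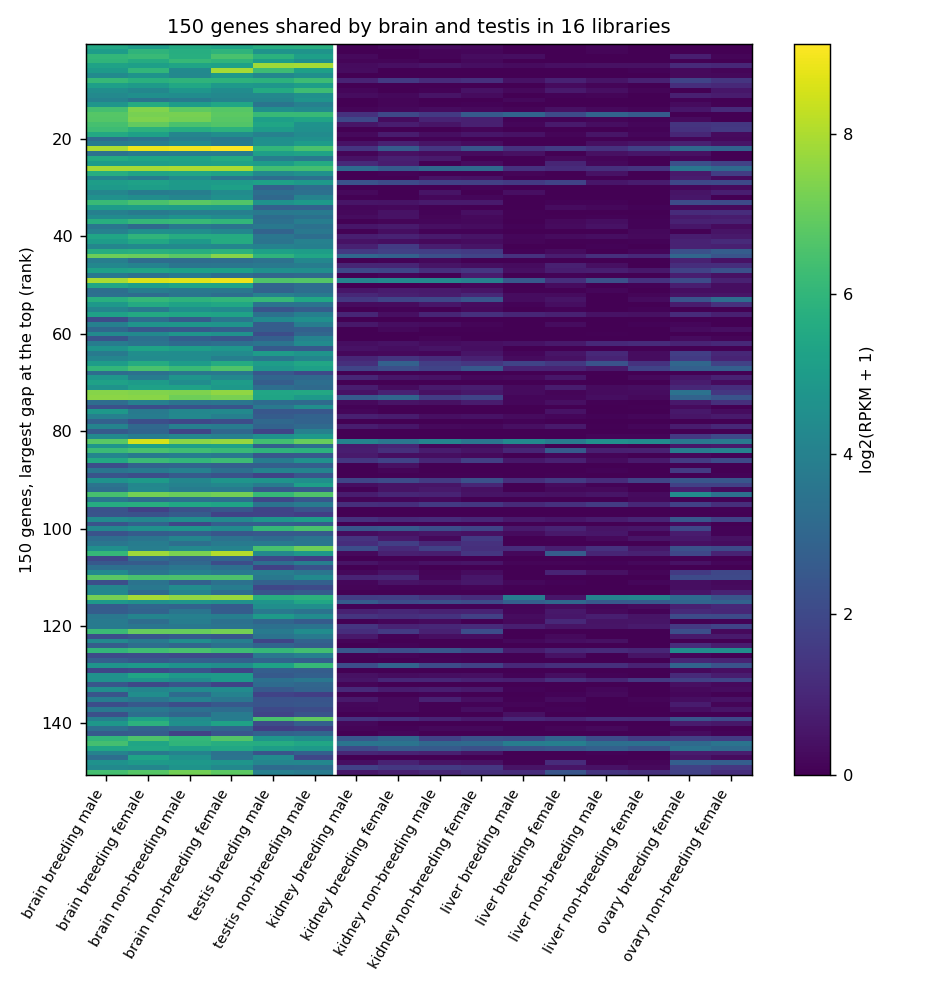
Level of each of the 150 genes (rows, ranked by gap) in each of the 16 libraries (columns), as log2(RPKM + 1). The 6 brain and testis columns left of the white line are brighter than the 10 kidney, liver and ovary columns in every row, which is how the genes were chosen. The ovary columns hold more faint signal than the kidney or liver columns.

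The largest gap belonged to DMR_09421, at 4.77 on the log2(RPKM + 1) scale. It had 43.2 and 31.9 RPKM in the breeding male and breeding female brains and 45.9 and 37.7 in the non-breeding male and non-breeding female brains. The testes had 50.5 RPKM (breeding) and 52.1 (non-breeding). Testis was thus slightly above all 4 brains, and the 2 testes were nearly equal. In kidney it had 0.032 to 0.210 RPKM, from 1 to 6 reads, and in liver at most 0.105, from 2 reads. Both ovary libraries had 0 reads of it, a count that allows up to 3 reads in a library and covers counting error only.

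DMR_02454 had the next largest gap, 4.51. Its levels were 31.7 and 60.7 RPKM in the breeding male and breeding female brains and 50.6 and 60.5 in the non-breeding male and non-breeding female brains. The testes had 24.8 RPKM (breeding) and 24.5 (non-breeding). Every brain was above both testes. Outside these tissues its reads came to 2 in each non-breeding kidney, 1 in the non-breeding male liver and 0 in the other 7 libraries.

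The gap had a median of 1.88 over the 150 genes. The last gene taken had 12.97 RPKM in its lowest brain or testis library against 4.26 in its highest other library, a gap of 1.41, or 2.66 times on the RPKM + 1 scale. The first gene not taken had 8.93 RPKM against 2.75, a gap of 1.40. The values run on without a break at this point. Of all 17327 genes with 1 RPKM or more in at least 2 libraries, 7.83% had their lowest brain or testis library above their highest other library, so the 150 are the top of a larger group of 1072 genes that had a gap above 0 and were not left out by the 8-fold step. A further 34 genes had a gap at least as large as the last gene taken but fell to that step, 30 of them as brain genes and 4 as testis genes.

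**Figure D2:**
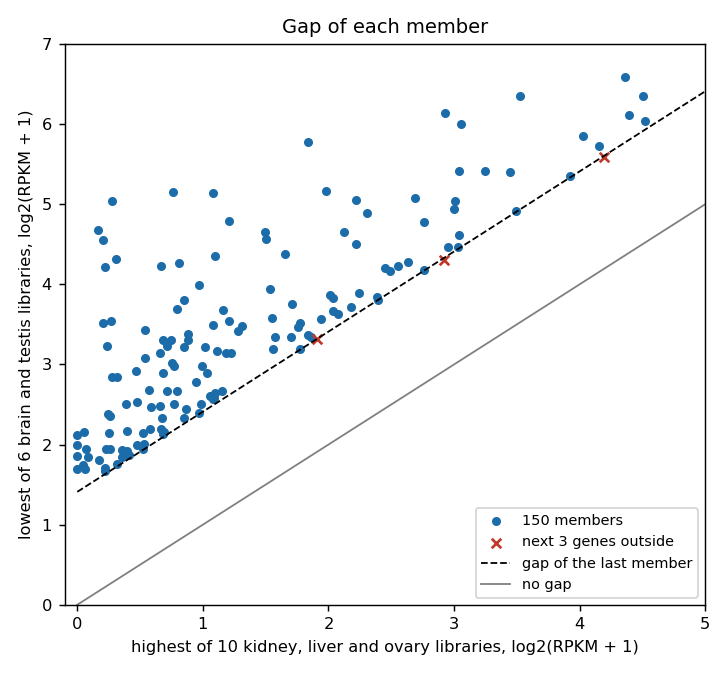
Lowest brain or testis library (vertical) against highest kidney, liver or ovary library (horizontal) for each of the 150 genes, both as log2(RPKM + 1). The dashed line is the gap of the last gene taken, 1.41, the crosses are the next 3 genes outside it, and the grey line marks equal values. Genes lie close together just above the dashed line, and the points far above it at the left are nearly silent outside brain and testis.

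The mean was higher in brain for 106 of the 150 genes and higher in testis for 44, and the median ratio of brain to testis was 1.63. The 4 brain libraries lay wholly above the 2 testis libraries for 79 genes, a share of 35.3% among all 17327 genes tested, and wholly below them for 27, against 39.4% of all genes. For the other 44 the libraries overlapped. The exclusion step holds the ratio of a gene with low levels elsewhere under 8 in both directions, and the ratio entered the choice of genes, so these counts carry no test. The 2 means were within 2-fold of each other for 70 genes. Brain was higher by 2-fold or more for 65 and testis for 15, and a 4-fold difference was reached by 22 genes in favour of brain and 5 in favour of testis.

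At the brain end stood DMR_21535. It had 27.6 and 57.3 RPKM in the breeding male and breeding female brains, 22.8 and 37.6 in the non-breeding male and non-breeding female brains, and 3.40 and 5.70 in the breeding and non-breeding testes. Its mean ratio of 7.98 was just under the exclusion limit. At the testis end stood DMR_02720. It had 87.4 and 137 RPKM in the breeding and non-breeding testes, against 22.0 and 13.8 in the breeding male and breeding female brains and 17.9 and 15.9 in the non-breeding ones, a mean ratio of brain to testis of 0.155. It was also read in every other library, with 1.14 to 3.43 RPKM in kidney, 0.517 to 1.46 in liver and 3.74 and 3.09 in the breeding and non-breeding ovaries.

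**Figure D3:**
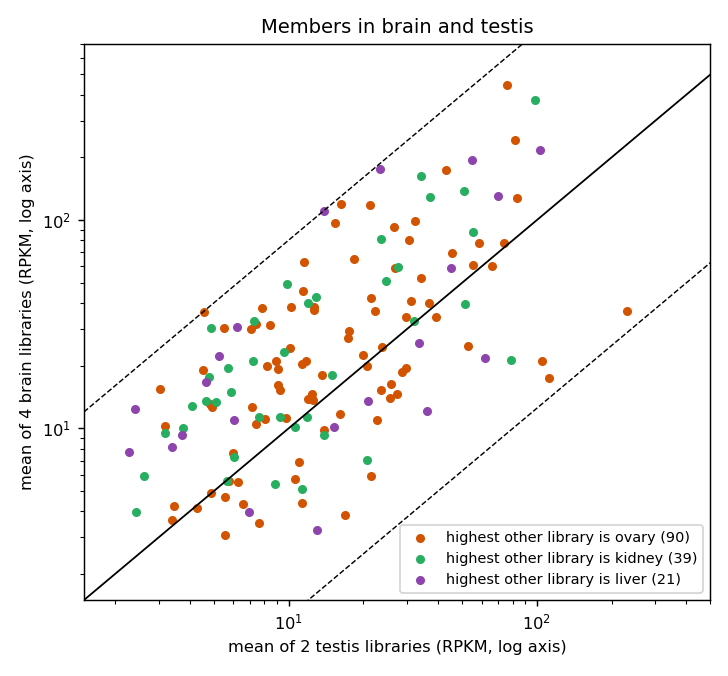
Mean of the 4 brain libraries (vertical) against the mean of the 2 testis libraries (horizontal) for the 150 genes, in RPKM on log axes. The solid line marks equal means and the dashed lines an 8-fold difference. Colours give the tissue of the highest library outside brain and testis, which was an ovary library for 90 genes, a kidney library for 39 and a liver library for 21. The counts by colour were not made over all genes.

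Together the 150 genes took 1.03% to 1.24% of the sum of RPKM in the brain libraries and 0.760% (breeding) and 0.758% (non-breeding) in the testes, against 0.0437% to 0.0514% in the ovaries, 0.0214% to 0.0258% in the kidneys and 0.0067% to 0.00905% in the livers. The breeding male brain was the low one of the brains, at 1.03% against 1.21% to 1.24% in the other 3. Counted as a share of reads on genes, the brains were closer together, with 1.17% in the breeding male and 1.19% to 1.23% in the other 3. That library was also the lowest brain for 58 of the 150 genes (33.5% of all genes tested were lowest in it), and its reads on genes came to 0.781 times the divisor against 0.871 to 0.928 in the other brains. The divisor cancels in a share of the RPKM sum, while the RPKM of a single gene rests on it. The part of this library's low values in the results by sex and status was not tested.

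Outside brain and testis, silence was common but seldom complete. All 10 kidney, liver and ovary libraries were under 1 RPKM for 76 genes and under 0.1 RPKM for 9. For 4 genes there was 0 reads in all 10, while their lowest brain or testis value was at least 2.23 RPKM. A further 23 genes reached 5 RPKM or more in at least 1 of the 10, up to 22.0 RPKM. Liver was the emptiest: every liver library was under 1 RPKM for 122 genes, against 104 genes in kidney and 84 in ovary, although the deposited liver values are raised by their divisor. The tissue with the highest mean among these 3 was ovary for 100 genes, kidney for 35 and liver for 15. The breeding ovary alone held the highest of the 10 values for 57 genes, and the non-breeding ovary for 33. These counts by tissue were not made over all genes. Whether the order of liver, kidney and ovary is particular to the chosen genes or holds for these tissues in general was therefore not tested.

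The same rule was applied to each other pair of tissues. Under the deposited scaling, brain and testis had the most genes with a gap above 0 after the exclusion step, 1072, followed by kidney and liver with 944 and testis and ovary with 727. The remaining 7 pairs had 224 to 573. For a gap of 1 or more, which is at least 2-fold on the RPKM + 1 scale, kidney and liver led with 329 genes against 247 for brain and testis. The order rests on the scaling. For a gap of 1 or more, brain and testis led with 342 genes against 242 for kidney and liver after scaling to reads on genes, while with quantile normalization kidney and liver led with 340 against 184. For gaps above 0, after scaling to reads, testis and ovary led with 1517 genes above 0 against 1459 for brain and testis, and with quantile normalization kidney and liver led with 903 against 749. The pairs also differ in how many libraries had to be exceeded, and no test was made between them. None of the 150 genes was among the first 150 of any other pair (0 shared), which the rule fixes.

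**Figure D4:**
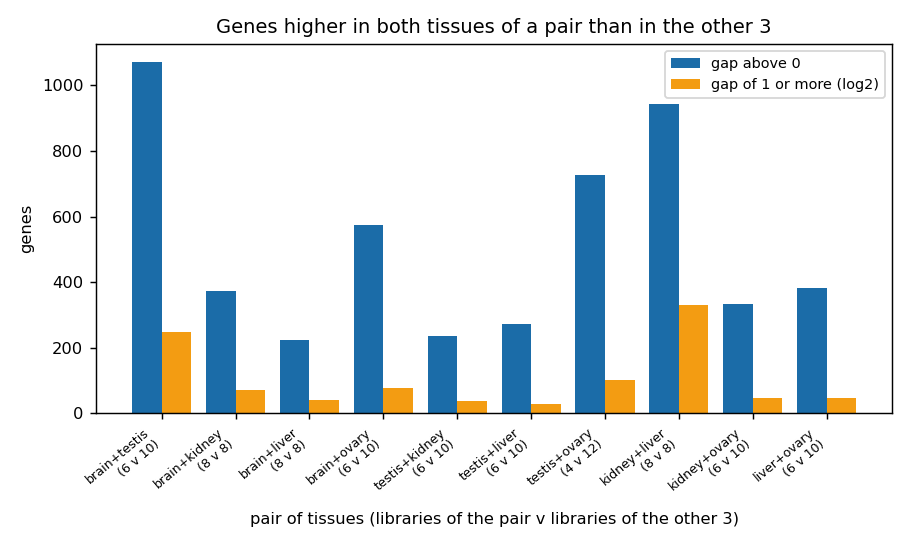
Number of genes higher in every library of a pair of tissues than in every library of the other 3, after the 8-fold step, for all 10 pairs under the deposited scaling. Blue bars count gaps above 0 and orange bars gaps of 1 or more on the log2(RPKM + 1) scale, and the numbers under the axis give the libraries of the pair and of the other 3 tissues. Brain and testis have the tallest blue bar (1072 genes) and kidney and liver the tallest orange bar (329 genes).

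Breeding status was compared first where the genes are high, in the 4 brain and 2 testis libraries, with tissue in the model. Limma called 0 of the 150 genes at an adjusted p of 0.05, as it called 0 of all 16196 genes tested (0%). At an unadjusted p under 0.05 there were 3 of the 150, all lower in breeding libraries, against 1.63% of all genes (0.704% higher and 0.926% lower), and voom on recovered reads called 0 of the 150. The 3 became 11 without the breeding male brain, where 952 of 16110 genes tested were at such a p. Without the breeding female brain they were also 11 (422 of 16085 genes tested). Without the non-breeding male brain there was 1 (234 of 16095). The count over all genes thus moved as well. Of the 150 differences 45 were above and 105 below 0, with 44.6% of all genes above 0, and the median was -0.08 on the log2 scale against -0.02 over all genes. Scaled to reads on genes, 58 were above and 92 below 0, with 53.1% of all genes above 0, and the medians were -0.04 and 0.01. Without either testis library the one that is left holds no status contrast, so both of these fits compare the brains alone. There 88 were below 0, with 48.6% of all genes above 0. A p that misses the threshold does not show that levels did not differ. In both brain pairs, each a breeder and a non-breeder of 1 sex, and in the testis pair alike, 29 genes were lower in the breeding library (10.2% of all genes tested) and 9 were higher (6.74%).

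The member nearest to a call in the lower direction was DMR_11202. It had 19.8 and 19.2 RPKM in the breeding male and breeding female brains against 26.9 and 23.5 in the non-breeding ones, and 3.46 RPKM in the breeding testis against 7.08 in the non-breeding one. Breeding values were lower in all 3 pairs and the brain libraries of the 2 statuses did not overlap, but the difference did not pass the threshold (log2 difference -0.52, SE 0.195, limma adjusted p = 0.9998, range over the alternatives 0.817 to 1). In the higher direction it was DMR_13081, with a long gene model of 6669 bases. It had 184 and 178 RPKM in the breeding male and breeding female brains against 135 and 152 in the non-breeding ones, and 38.9 RPKM in the breeding testis against 29.6. Its values were likewise apart by status in all 3 pairs and did not pass (log2 difference 0.35, SE 0.173, limma adjusted p = 0.9998, range over the alternatives 0.834 to 1).

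Whether the status difference was unequal in testis and brain was tested, as a comparison added after the data were seen, with a status effect for each of the 2 tissues. Limma called 0 of the 150 genes and 0 of all 16196 (0%), with 4 of the 150 at an unadjusted p under 0.05 against 5.53% of all genes.

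Over the 12 kidney, liver and brain libraries, with tissue and sex in the model, limma called 0 of the 150 genes for breeding status, where it called 0.0251% of 15964 (0.0188% higher and 0.00626% lower in breeders). At an unadjusted p under 0.05 were 4 of the 150, all higher in breeders, against 13.5% of all genes (7.22% higher and 6.31% lower), and voom called 0 of the 150. Without 1 library the 4 became 2 to 6. The 2 came without the non-breeding female kidney, where 1471 of 15929 genes tested were at such a p. The 6 came without the breeding female brain (2968 of 15865). The genes split into 73 above and 77 below 0, with 53.3% of all genes above 0, and their median was -0.01 against 0.02 over all genes. Scaled to reads on genes they split into 81 and 69, with 57.8% of all genes above 0. The 150 genes were chosen to be low in 8 of these 12 libraries, where values near 0 leave little room for a difference on this scale, so their count is not to be read against the share of all genes. DMR_11447 had the smallest p. It had 17.7 and 15.47 RPKM in the breeding male and breeding female brains against 10.6 and 11.05 in the non-breeding ones, and 0.925 and 0.902 RPKM in the breeding kidneys against 0.412 and 0.261. In liver it had 0.213 and 0.729 RPKM in the breeding male and female against 0.281 and 0 in the non-breeding ones. Brain and kidney separated by status and liver did not, and the difference did not pass (log2 difference 0.48, SE 0.132, limma adjusted p = 0.217, range over the alternatives 0.0904 to 0.463). Its testis values, outside this fit, ran the other way, at 11.95 RPKM (breeding) and 13.1 (non-breeding). In the lower direction DMR_21267 had the smallest p, with 71.05 and 90.1 RPKM in the breeding male and breeding female brains against 109.5 and 100.05 in the non-breeding ones, and no call at a limma adjusted p of 0.509 (log2 difference -0.19, SE 0.118, range over the alternatives 0.355 to 0.754).

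Within brain alone, with the spread estimated over the 12 libraries, limma called 0 of the 150 genes and 0 of all 15964 (0%). Unadjusted p-values under 0.05 went to 3 of the 150, 1 higher and 2 lower in breeders, against 1.7% of all genes (0.877% higher and 0.821% lower), and voom called 0 of the 150. The spread in this fit came in part from kidney and liver, where these genes were chosen to be low. The count is therefore not to be read against the share of all genes. Leaving out 1 brain library makes the difference that of 1 breeder against 1 non-breeder, with no spread measured in brain. The median log2 difference of the 150 was then 0.01 without either male brain and -0.15 without either female brain, against -0.05 with all brain libraries. Breeding brains lay wholly above non-breeding brains for 11 genes (10.6% of all genes tested) and wholly below for 16 (11.6%). The smallest p belonged to DMR_09993, at 44.4 and 35.2 RPKM in the breeding male and female brains against 16.9 and 21.2 in the non-breeding ones. The log2 difference was 1.02 (SE 0.249, limma adjusted p = 1, range over the alternatives 0.661 to 1). In testis the same gene had 14.9 RPKM (breeding) and 20.2 (non-breeding), the opposite order to brain. The status effect in testis minus that in brain was -1.44 on the log2 scale, with 1 testis library against 1. DMR_15971 had the smallest p in the lower direction. It had 3.71 and 9.13 RPKM in the breeding male and female brains against 6.81 and 13.01 in the non-breeding ones, from 18 to 55 reads, and its values overlapped by status.

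**Figure D5:**
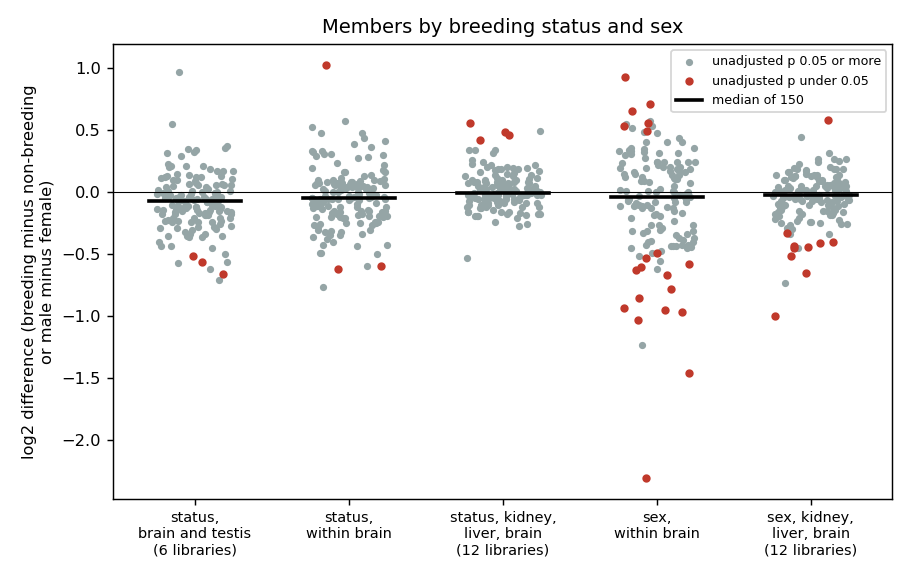
Fitted log2 differences of the 150 genes for breeding over non-breeding libraries (3 columns at the left) and male over female libraries (2 columns at the right). Each point is a gene, red points have an unadjusted p under 0.05, black bars are medians, and points are spread sideways only to be seen. No gene passed the limma threshold of adjusted p 0.05 in any column, and the sex differences within brain are the most widely spread.

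Sex was compared in the same libraries. Over kidney, liver and brain, limma called 0 of the 150 genes, where it called 0.489% of all 15964 (0.332% higher and 0.157% lower in males), and voom called 0 of the 150. Those at an unadjusted p under 0.05 were 10, of which 1 was higher and 9 were lower in males, against 19.4% of all genes (10% higher and 9.4% lower). Without 1 library they were 6 to 13. The 6 came without the non-breeding female brain, where 3122 of 15907 genes tested were at such a p. The 13 came without the non-breeding female liver (2451 of 15921). With voom they were 21, 7 higher and 14 lower, against 3157 of all 15964 genes. Here too the choice of genes that are low in 8 of the 12 libraries bears on the count, and it is not to be read against the share of all genes. DMR_17521, the gene with the highest mean level of the 150 in brain, led the lower ones. In brain it had 252 and 500 RPKM in the breeding and non-breeding males against 465 and 555 in the breeding and non-breeding females, in kidney 1.64 and 1.69 in males against 5.13 and 4.16 in females, and in liver 1.47 and 1.47 against 2.04 and 2.35. The sexes did not overlap in kidney and liver and overlapped in brain. The log2 difference was -0.66 (SE 0.169, limma adjusted p = 0.0864, range over the alternatives 0.0341 to 0.23). DMR_02720, the gene at the testis end described above, led the higher ones. It had 22.0 and 17.9 RPKM in male brains against 13.8 and 15.9 in female brains, 3.43 and 2.40 in male kidneys against 1.14 and 1.33 in female kidneys, and 1.24 and 1.46 in male livers against 0.721 and 0.517 in female livers. Males were above females in all 3 tissues without overlap, and the difference was close to the threshold but did not pass it (log2 difference 0.58, SE 0.129, limma adjusted p = 0.065, range over the alternatives 0.0232 to 0.176). With the class of status and sex as a random block both genes passed (limma adjusted p = 0.0232 for DMR_02720 and 0.0341 for DMR_17521). The block left the log2 differences unchanged and lowered the SE, to 0.114 for DMR_02720 and 0.147 for DMR_17521. Its estimated correlation within a class was -0.098, and a negative value lowers this SE. Without the breeding female liver DMR_02720 passed (limma adjusted p = 0.0392).

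Within brain, limma called 0 of the 150 genes for sex, where it called 0.0501% of all 15964 (0.0438% higher and 0.00626% lower in males), and voom called 0 of the 150. At an unadjusted p under 0.05 were 20 of the 150, with 14 lower and 6 higher in males, against 6.34% of all genes (2.66% higher and 3.68% lower), and with a pseudocount of 0.1 in place of 1 they were 5. With that pseudocount 916 of all 15964 genes were at such a p. Without the breeding female kidney the 20 became 13, and 788 of 15902 genes tested were at such a p. Here too the spread came in part from kidney and liver, where these genes were chosen to be low. Their count is therefore not to be read against the share of all genes. Leaving out 1 brain library makes the difference that of 1 male against 1 female, with no spread measured in brain. The median log2 difference of the 150 was then -0.13 without either non-breeding brain and 0.05 without either breeding brain, against -0.04 with all brain libraries. The 150 genes split into 67 above and 83 below 0, with 50.3% of all genes above 0. Scaled to reads on genes they split into 93 and 57, with 63.3% of all genes above 0, so that the members moved with all genes, whose median shifted to 0.10 on the log2 scale. Male brains lay wholly above female brains for 35 genes (18.5% of all genes tested) and wholly below for 38 (18.9%). DMR_09617 had 3.35 and 5.32 RPKM in the breeding and non-breeding male brains against 8.58 and 11.1 in the breeding and non-breeding female brains. It is 1 of the 4 genes with 0 reads in kidney, liver and ovary, and it was highest in testis, with 19.2 and 22.1 RPKM in the breeding and non-breeding males. Its log2 difference of -1.04 in brain did not pass (SE 0.21, limma adjusted p = 0.627, range over the alternatives 0.238 to 0.867). DMR_07761 had 18.2 and 15.8 RPKM in the breeding and non-breeding male brains against 8.15 and 8.78 in the female ones, without overlap and likewise without passing (log2 difference 0.92, SE 0.216, limma adjusted p = 0.709, range over the alternatives 0.287 to 0.872).

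The brain library of the non-breeding male, whose label does not say frontal, was among those whose lowest value chose the genes. Genes far lower in it than in the others were thus selected against, so its distance from them is described only. This library lay above all 3 frontal libraries for 42 of the 150 (22.4% of all genes tested) and below all 3 for 29 (19.6%). The median difference from the mean of the 3 was 0.05 on the log2 scale over the 150 genes and 0 over all genes. No gene was 2-fold or more above that mean (0 of 150) and 2 were 2-fold or more below it. These 2-fold counts were not made over all genes. This library is the only one of its class, so region cannot be told apart from sex, status and age here.

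In testis and in ovary there is 1 library a status, and values are compared without a test. The breeding testis was 2-fold or more above the non-breeding one for 2 of the 150 genes (0.634% of 15452 genes) and 2-fold or more below it for 6 (2.64%). It was higher for 49 and lower for 101 of the 150, with 43.4% of all genes higher, and the median log2 difference was -0.12 against -0.06 over all genes. Scaled to reads on genes 94 were lower, with 47.8% of all genes higher, and with quantile normalization 84, with 52.7% higher. DMR_18067 has a short gene model of 225 bases. It had 19.8 RPKM (124 reads) in the breeding testis against 2.85 (25 reads) in the non-breeding one. Its 4 brain libraries also spread widely, with 8.91 and 38.3 RPKM in the breeding male and female against 23.6 and 10.4 in the non-breeding ones, in no order of status or sex. DMR_21931 had 2.67 RPKM (117 reads) in the breeding testis against 15.01 (919 reads) in the non-breeding one, and was unread in kidney, liver and ovary.

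In ovary 66 of the 150 genes reached 1 RPKM in at least 1 of the 2 libraries. Of these, 8 were 2-fold or more higher in the breeding ovary (6.35% of 14109 genes) and 1 was lower by as much (1.91%). The median log2 difference of the 66 was 0.07, against 0.02 over all genes, and with quantile normalization it was -0.07 against -0.05, so its direction rests on the scaling. DMR_01260 had 9.91 RPKM (420 reads) in the breeding ovary against 1.80 (58 reads) in the non-breeding one, while its brain values of 163 to 191 RPKM and its testis values of 41.4 (breeding) and 44.6 (non-breeding) were even. DMR_02500 had 0.53 RPKM (13 reads) in the breeding ovary against 2.14 (40 reads) in the non-breeding one.

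The rule goes by the lowest brain or testis library and so favours genes with little spread there, and the spread is given as a description. The highest brain library exceeded the lowest by a median of 1.52 times, by 2 times or more for 26 genes and by 4 times or more for 4. The 2 testes differed by a median of 1.23 times and by 2 times or more for 9 genes. The gene model lengths recovered from the RPKM values had a median of 1252.5 bases for the 150 genes and 1245 for all genes tested. The lower and upper quartiles were 908.25 and 2197.5 bases against 708 and 2106.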

How the data were processed

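The authors deposited 1 table of RPKM values with a column per library, all 16 of which were used. Per the submitters' processing notes reads were aligned with TopHat 1.3.1. For the genome build, the annotation and the counter, nothing is given in the sources used here. Per the labels' protocols, poly(A) RNA was copied from random hexamers and sequenced from both ends, and no marking of strand is mentioned, so overlapping genes and near-identical copies cannot be separated.

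Whole reads, gene model lengths (in units of 3 bases) and divisors were recovered from the RPKM values. Of the values, 100% came out whole at a tolerance of 1e-06 reads. Whether the lengths are those of coding sequence is not stated in the sources used here. The unit of 3 bases was set rather than recovered. Lengths in bases, divisors and the size of reads over divisor rest on it, while comparisons between libraries do not. Genes reaching 1 RPKM in 2 or more of the libraries fitted entered limma 3.58.1 (R 4.3.3) on the log2(RPKM + 1) scale (eBayes with trend, Benjamini-Hochberg over all genes tested, threshold adjusted p 0.05), and log2 differences understate changes of low genes. The models were tested on simulated data. That covered the fits for breeding status and not those for sex or for the difference between tissues. Alternatives were a pseudocount of 0.1, no filter, scaling to reads on genes, quantile normalization, voom, other covariates and leaving out each library.

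The members and comparisons were chosen with earlier results of these data known. Named were the 2 genes with the largest gap, for each test the largest changes past the threshold or else the smallest p in each direction, and the extreme ratios where 1 library met 1. A further 2 genes, in the closing section, were picked after their values were seen. Lists of cell type markers could not be used.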

Additional observations from a re-analysis of the deposited data

Results flagged for a closer look

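The share of the RPKM sum taken by the 150 genes was 1.03% in the breeding male brain, apart from 1.21% to 1.24% in the other 3 brains, and 1.17% against 1.19% to 1.23% as a share of reads. DMR_18159 had 0.456 RPKM (7 reads) in the breeding female liver, against 13.6 in the breeding male, 16.1 in the non-breeding male and 16.8 in the non-breeding female liver. Its brain values were 147 and 235 RPKM in the breeding male and female and 193 and 206 in the non-breeding male and female. These were the 2 of 29 sets of 4 libraries in brain, kidney or liver in which 1 library lay far from the other 3, over the named genes and the summed share. DMR_18159 was named because it had the widest liver range of all 150 genes, so its place in that count is not independent of its values. The search was then made over every one of the 150 genes, wherever at least 1 of the 4 libraries reached 1 RPKM. Of 224 such sets 11 (4.91%) had a library apart, 3 of them among the 28 in liver. The limit used flags about 1 in 20 sets of 4 values drawn alike. These libraries differ in sex and status, and their values entered the choice of genes. The share is therefore not to be read against 1 in 20, and it was not counted over all genes.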

How the results depend on the processing

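No alternative gave a call among the 150 genes for breeding status (0 in each fit, also without any 1 library) or for sex within brain (0). For sex in kidney, liver and brain, 4 genes were called with the class of status and sex as a random block, where 765 of all genes were called against 78, and 0 to 2 when a library was left out. The 2 came without the breeding female liver, where 749 of all genes were called. Libraries of one class had an estimated correlation of -0.098, and a negative value lowers the SE of sex and status differences. Over all genes the sex calls were 31 with no filter, 27 scaled to reads on genes, 34 with quantile normalization, 215 with voom and 9 to 749 without a library, and the status calls 12 with the block and 3 to 57 without a library. With quantile normalization 1 gene was called for status in brain and testis. The cause of the other changes was not tested.

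Of the 150 genes, 91 were also chosen when tissue means replaced the lowest and highest library, 115 with a pseudocount of 0.1, 129 scaled to reads on genes, 121 with quantile normalization, 121 with no exclusion step, 123 with exclusion at 4 times and 129 to 150 without a library. With a pseudocount of 0.1, 5 of the 66 genes compared were 2-fold or more lower in the breeding ovary against 1. Over all 14109 genes compared, 476 were lower by as much against 270. No paired analysis was possible because no label ties libraries to an animal and every replicate number is 1. The random block above groups libraries by status and sex across tissues and stands for no known animal. Low reads limit the values outside brain and testis, where a count of 0 allows up to 3 reads.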

Other observations

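DMR_12167, singled out after its values were seen, combined the sixth largest gap of the 150 genes with the widest range in brain. It had 30.4 and 63.9 RPKM in the breeding male and breeding female brains and 18.9 and 236 in the non-breeding male and non-breeding female brains, a 12.5-fold range from 319 to 4417 reads. The testes had 75.5 RPKM (breeding) and 35.4 (non-breeding), and it was at most 0.24 RPKM in kidney, liver and ovary. Both female brains were above both male brains.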
